A study of Homo sapiens with 32 samples.

Results

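Binding of the transcription factor HNF4α was examined at 8 genes of the epithelial-mesenchymal transition (EMT): the cadherin genes CDH1 and CDH2, the repressor genes SNAI1, SNAI2, ZEB1, ZEB2 and TWIST1, and VIM. The genes were chosen by name, among 20033 protein-coding genes of the RefSeq annotation of GRCh38.p14. In each of 18 deposited peak lists, every peak whose summit lay within 50 kb of the span of one of these genes was taken. This gave 355 peaks of 337294, and overlapping peaks of different lists merged into 75 sites of 78729 merged regions.

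The lists come from chromatin immunoprecipitation sequencing (ChIP-seq) of 3 human pancreatic ductal adenocarcinoma cell lines grown as 2D cultures, with 2 libraries in each of 9 groups. Panc10.05 and BxPC3 cells were given doxycycline (dox) to express HNF4α from either of its promoter classes. Panc10.05 P1-a2 received 25 ng/mL and Panc10.05 P2-a8 received 12.5 ng/mL, so the dose changes with the isoform there, while BxPC3 P1-a2 and BxPC3 P2-a8 both received 500 ng/mL. Genotype P1-a2 is the P1 isoform α2 and genotype P2-a8 the P2 isoform α8. These 4 groups were precipitated with an antibody to HNF4α (PP-H1415), called the pan antibody here. ASPC1 cells carried CRISPR interference (CRISPRi), which represses transcription at a guide's target, with guide sgNC, sgP1 or sgP2. Each ASPC1 genotype has pan-antibody libraries, and for sgNC and sgP2 there are further libraries of an antibody to P1 isoforms (PP-K9218). The 14 input libraries were not analysed here, and no list from cells without induction was analysed, so the induced lines have no untreated background. The labels give no dox time and do not name the control of sgNC further. They state cells collected for each replicate without saying that replicates were separate cultures, so the p-values measure the spread between libraries, which may be technical. The lists hold no expression values, so the induction and the CRISPRi targets could not be checked in them.

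HNF4α is a nuclear receptor that maintains gut, liver and pancreatic epithelial programmes, and its P1 and P2 promoters give proteins with different N-termini. In EMT, epithelial cells lose E-cadherin, the product of CDH1, and gain N-cadherin, the product of CDH2, and the intermediate filament vimentin, the product of VIM. The zinc-finger proteins of SNAI1 and SNAI2, the zinc-finger homeodomain proteins of ZEB1 and ZEB2 and the basic helix-loop-helix protein of TWIST1 are known repressors of CDH1. ChIP-seq peaks show where a factor was crosslinked to DNA and carry no measure of a gene's expression.

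Promoter sequences are shown for annotated promoter windows that a peak overlapped in at least 4 lists. Each window runs from 250 bases before to 50 bases after an annotated start and was taken from RefSeq (GRCh38.p14), 5′ to 3′ on the gene's strand. The members CDH2, ZEB1, ZEB2 and VIM had windows in the table, 11 in all, and CDH1, SNAI1, SNAI2 and TWIST1 had none. The first ZEB1 window, chr10:31318167-31318466 on the plus strand, overlapped a peak in 7 lists. It held the summits of 2 of them, at bases 276 and 288, and its capitals run from one summit to the other. The second ZEB1 window, chr10:31318568-31318867 on the plus strand, overlapped a peak in 8 lists and held 6 summits, from base 12 to base 252, which the capitals span. The VIM window, chr10:17227991-17228290 on the plus strand, overlapped a peak in 4 ASPC1 lists and held no summit, and its capitals are the bases inside the peaks of all 4. The window of TRDMT1, the gene beside VIM, is chr10:17201623-17201922 on the minus strand. It overlapped a peak in all 6 pan-antibody lists of ASPC1, and its capitals are the bases inside the peaks of all 6. Windows overlapped in fewer lists are not shown: 2 others of ZEB1 (in 2 lists and 1 list), 1 of ZEB1-AS1 and that of RNF114 beside SNAI1 (in 3 lists).
ZEB1 first window: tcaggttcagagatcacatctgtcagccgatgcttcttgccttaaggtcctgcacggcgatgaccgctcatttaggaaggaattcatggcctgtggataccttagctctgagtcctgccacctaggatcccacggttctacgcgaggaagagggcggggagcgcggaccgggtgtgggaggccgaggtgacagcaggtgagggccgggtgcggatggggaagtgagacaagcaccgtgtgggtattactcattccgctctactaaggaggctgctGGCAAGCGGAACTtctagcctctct
ZEB1 second window: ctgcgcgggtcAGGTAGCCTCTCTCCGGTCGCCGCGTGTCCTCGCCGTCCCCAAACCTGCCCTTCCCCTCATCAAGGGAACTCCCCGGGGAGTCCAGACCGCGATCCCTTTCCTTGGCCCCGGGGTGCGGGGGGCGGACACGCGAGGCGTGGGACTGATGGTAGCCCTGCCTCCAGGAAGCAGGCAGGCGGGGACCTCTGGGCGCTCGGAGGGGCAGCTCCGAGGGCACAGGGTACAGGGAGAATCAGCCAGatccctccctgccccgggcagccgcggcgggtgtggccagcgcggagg
VIM: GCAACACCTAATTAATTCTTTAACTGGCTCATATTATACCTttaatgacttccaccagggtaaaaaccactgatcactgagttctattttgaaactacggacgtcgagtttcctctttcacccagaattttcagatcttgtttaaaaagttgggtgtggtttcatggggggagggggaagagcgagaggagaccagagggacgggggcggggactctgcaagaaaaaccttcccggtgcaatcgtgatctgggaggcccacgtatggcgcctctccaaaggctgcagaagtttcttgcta
TRDMT1: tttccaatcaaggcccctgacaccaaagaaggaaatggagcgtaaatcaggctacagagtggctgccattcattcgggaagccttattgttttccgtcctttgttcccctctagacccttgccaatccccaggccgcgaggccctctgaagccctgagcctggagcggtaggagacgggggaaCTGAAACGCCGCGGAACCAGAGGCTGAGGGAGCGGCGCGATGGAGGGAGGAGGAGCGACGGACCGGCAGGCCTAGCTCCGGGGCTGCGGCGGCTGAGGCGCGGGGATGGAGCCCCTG
The second ZEB1 window was 72% G and C and held 27 CpG dinucleotides, and the VIM window was 48% G and C with 10. A set of 3 spellings of an HNF4 motif were searched on both strands: CAAAGTCCA, CAAAGGTCA and the full direct repeat known as DR1, which contains the second of them. None of the 11 windows of the members held any of them, against 0.792% of 35116 promoter windows of the same 300 bases. The windows of CDH2 and ZEB2 overlapped no peak in any of the 18 lists. Sites away from promoters carry no sequence here, since no genome sequence was used.

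Lists differed in length and in the authors' threshold. Panc10.05 lists held between 24828 and 39111 peaks, BxPC3 lists between 12681 and 41808, and ASPC1 lists between 11686 and 24295 with the pan antibody and between 260 and 5200 with the P1 antibody. No peak of the induced lines had a −log10 q under 8, while ASPC1 lists went down to 2, so the tests of ASPC1 against the induced lines used only peaks of at least 8. Numbers of ASPC1 peaks and sites are otherwise those of the deposited lists, and are not matched in threshold to the induced lists unless that is stated. Read depth is unknown, so values carry no counting interval. Library names carry a number prefix that is the same within a line and differs between lines. The labels do not say what it marks, and it cannot be told apart from the line. The fold enrichment of a peak is the authors' value. Its percentile is the peak's rank by fold within its own list, 100 being the strongest, and percentiles of lists of different length show no change between them.

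Every induced pan-antibody group with the longer lists bound nearly all of the 8 loci, and CDH1 and SNAI1 held the most peaks. A peak in both libraries was found at 7 of 8 genes in Panc10.05 P1-a2, 8 in Panc10.05 P2-a8, 8 in BxPC3 P1-a2 and 4 in BxPC3 P2-a8. The corresponding share of all coding genes was 74.5%, 79.5%, 76.6% and 45.4%. In ASPC1 the pan antibody gave 5 genes with sgNC, 6 with sgP1 and 4 with sgP2, against 58.5%, 50.6% and 52.0% of coding genes. With the P1 antibody there were 0 of 8 genes in sgNC cells and 2 of 8 in sgP2 cells, beside 2.31% and 23.7% of coding genes. The median member had 2.75, 3.5, 4.5 and 0.75 peaks in the 4 induced groups, in the same order, and the median coding gene 2, 2.5, 2.5 and 0.5. In the 3 ASPC1 pan-antibody groups these medians were 1.5, 1.25 and 1 for the members and 1.5, 1 and 1 for coding genes. Presence of a peak was common at coding genes as a whole, and the members' counts lay near it.

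**Figure D1:**
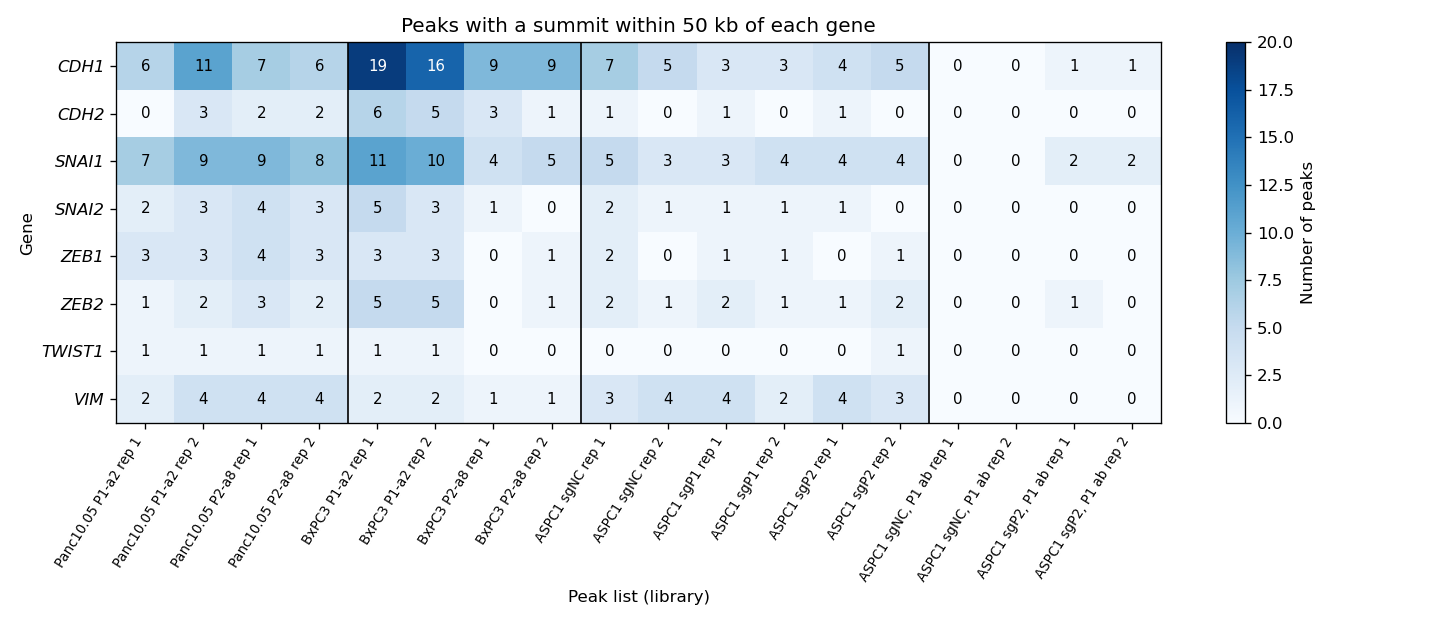
Number of peaks with a summit within 50 kb of each of the 8 genes (rows) in each of the 18 peak lists (columns), with vertical lines between Panc10.05, BxPC3, ASPC1 with the pan antibody and ASPC1 with the P1 antibody ("P1 ab"). CDH1 reaches 19 peaks in BxPC3 P1-a2 replicate 1, and the 2 sgNC lists of the P1 antibody hold 0 at every gene.

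Pooled over the 8 loci, peak density lay above that of coding genes in every pan-antibody list. The 8 windows together span 1.51 Mb and held 34.4 and 29.7 peaks per Mb in the BxPC3 P1-a2 lists, where the windows of all coding genes held 17.3 and 13.9. In BxPC3 P2-a8 both lists held 11.9 per Mb at the 8 loci, against 5.32 and 6.04 at coding genes. Both BxPC3 groups were denser at these loci, pooled, than at coding genes as a whole. The windows of CDH1 and SNAI1, 198 and 106 kb long, held much of this. In BxPC3 P2-a8 they held 9 and 4 of the 18 peaks of replicate 1 and 9 and 5 of the 18 of replicate 2. In BxPC3 P1-a2 replicate 1 they held 19 and 11 of 52. In Panc10.05 P1-a2 they held 6 and 7 of 22 and 11 and 9 of 36. In P2-a8 of that line they held 7 and 9 of 34 and 6 and 8 of 29. The other members had means of 0 (TWIST1) to 2 (CDH2) peaks in BxPC3 P2-a8. Density without CDH1 and SNAI1 was not computed, so the pooled value and its margin over coding genes do not describe the other members. Pooled Panc10.05 densities were 14.5 and 23.8 for P1-a2 and 22.5 and 19.2 for P2-a8, against 10.8 to 17.3 at coding genes. In ASPC1 with the pan antibody they were 7.93 to 14.5 per Mb in the lists as deposited, against 5.34 to 11, and 4.62 to 9.25 at the 8 loci with peaks of at least 8. With the P1 antibody, sgP2 gave 2.64 and 1.98 per Mb beside 2.29 and 1.76, the smallest margins of the lists that held any peak there.

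**Figure D2:**
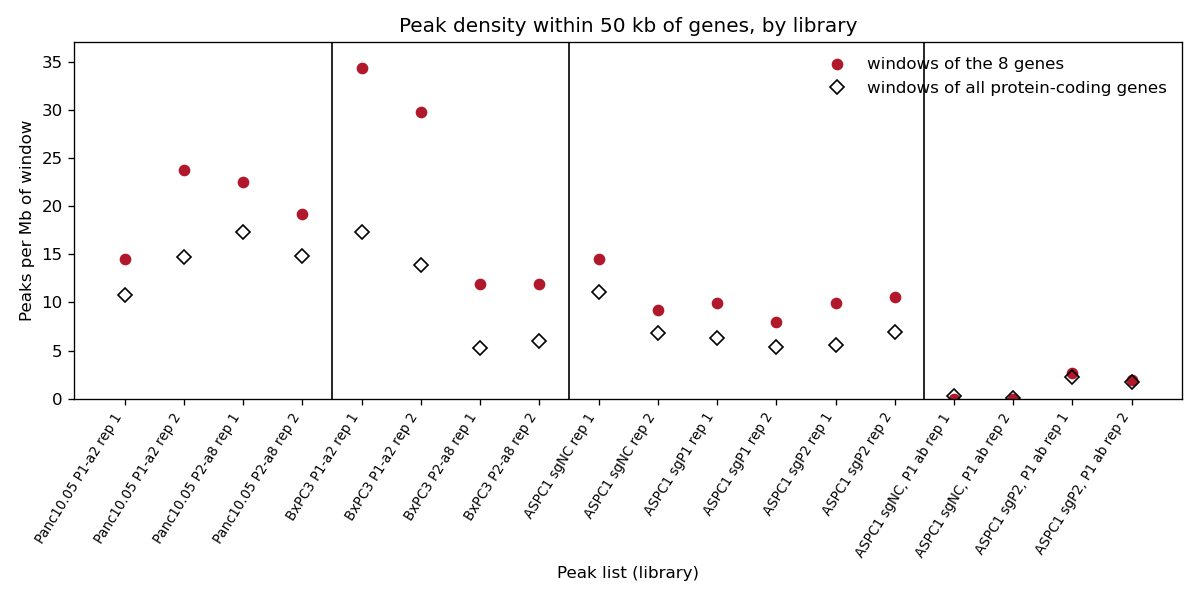
Peaks per Mb of window in each of the 18 peak lists, each window reaching 50 kb beyond its gene. Filled circles show the 8 genes pooled, with many of the peaks in the CDH1 and SNAI1 windows, and open diamonds all protein-coding genes. The filled circles lie above the diamonds in every pan-antibody list, furthest in BxPC3 P1-a2 replicate 1 (34.4 against 17.3).

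The 75 sites were narrow, with a median width of 494 bp, and the summits of the lists that shared a site lay within a median of 69.5 bp. Of them, 30 lay inside the span of their gene and 45 outside it. The pan antibody found 16 sites in all 3 lines, while 19 were found in BxPC3 alone, 8 in Panc10.05 alone and 10 in ASPC1 alone. With peaks of at least 8 in every list there were 67 sites, of which 9 were in all 3 lines, 25 in both induced lines, 19 in BxPC3 alone, 8 in Panc10.05 alone and 3 in ASPC1 alone. Only 2 sites had a peak in all 14 pan-antibody lists, and both belong to the SNAI1 window. A site in 1 list only was not rare: 15 of the 75 were of this kind, and 57 were found in both libraries of at least 1 group.

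**Figure D3:**
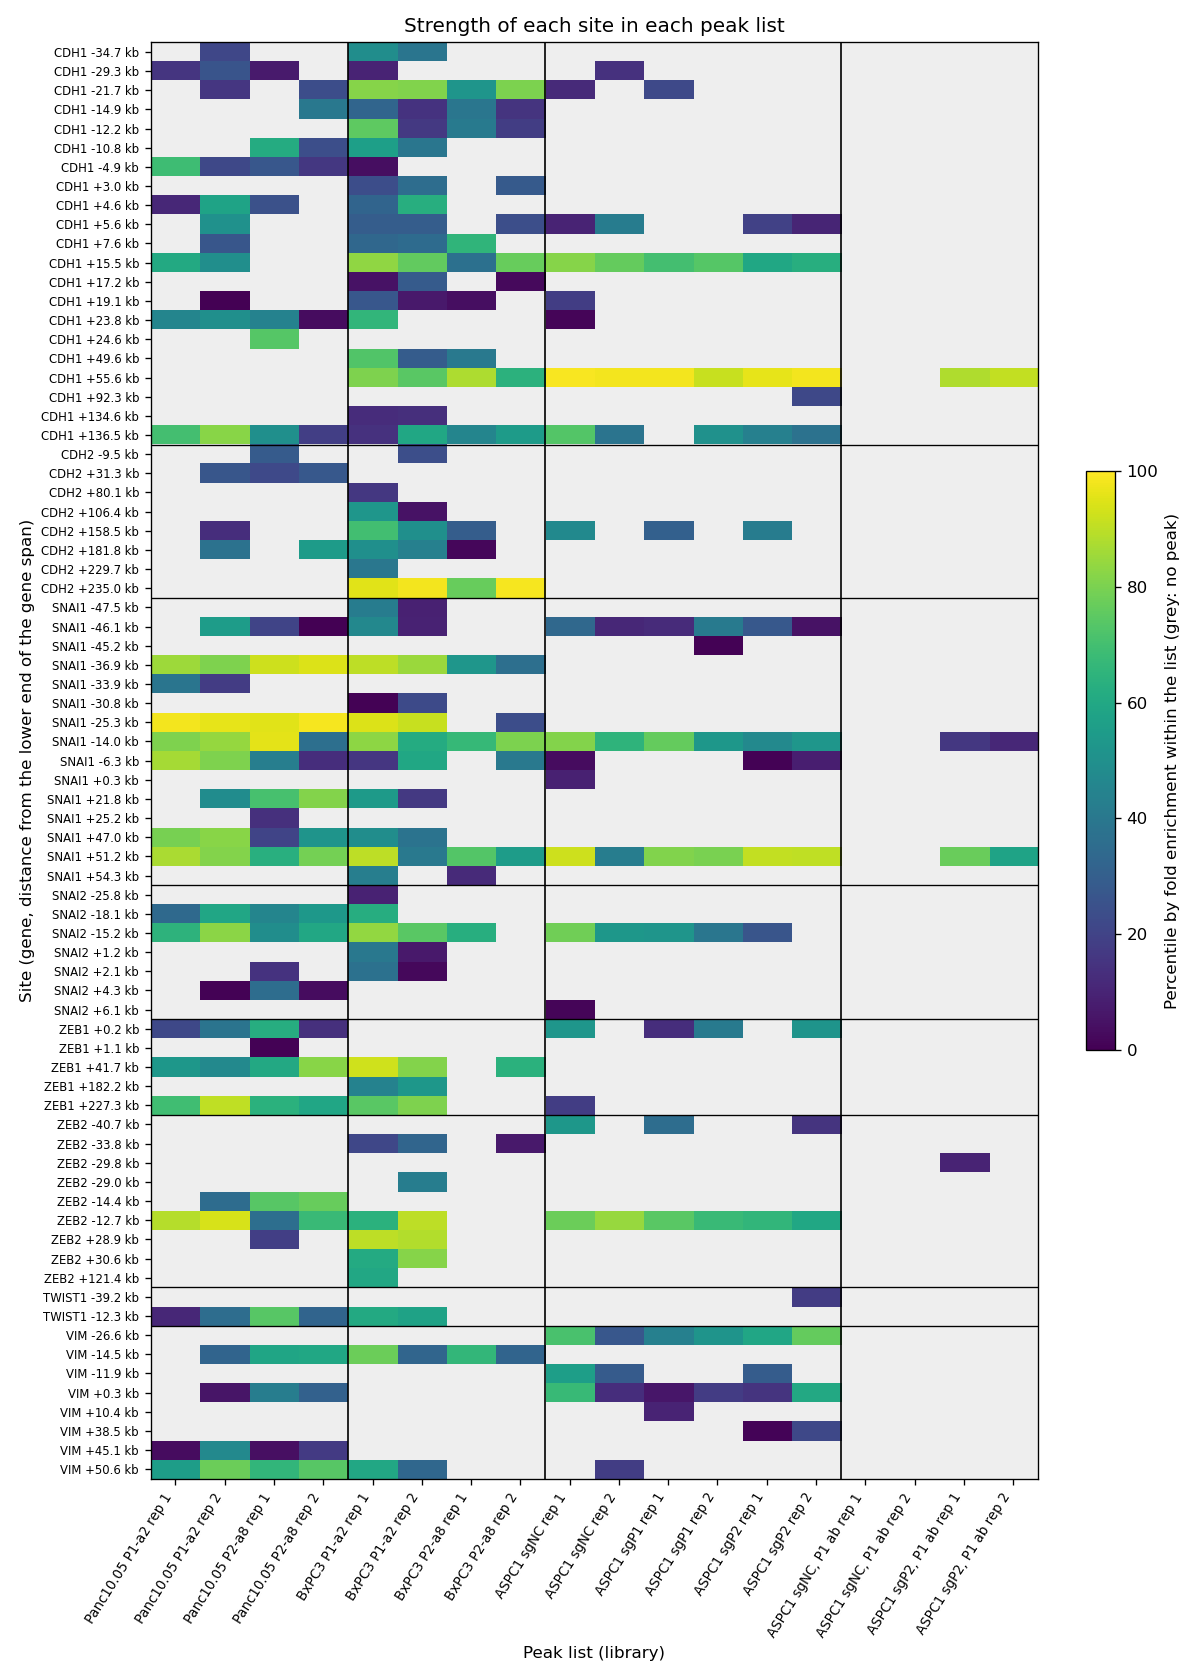
Percentile of the peak by the authors' fold enrichment within its own list (colour, 0 to 100, grey for no peak) for each of the 75 sites (rows, named by gene and distance in kb from the lower coordinate of the gene's span) in each of the 18 peak lists (columns). The SNAI1 sites at −14 kb and +51.2 kb are filled in all 14 pan-antibody lists, and the CDH1 site at +55.6 kb is filled in BxPC3 and ASPC1 and empty in Panc10.05.

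CDH1, which encodes the adherens-junction protein E-cadherin, was the gene with the most sites, 21 on chromosome 16. Inside its own span, chr16:68737292-68835537, lay 12 of them. The neighbouring placental cadherin gene CDH3 held 7, and TANGO6 held 2. The window therefore covers a pair of cadherin genes, and a peak in it cannot be assigned to one of them. Numbers of CDH1 peaks were 6 and 11 in Panc10.05 P1-a2, 7 and 6 in Panc10.05 P2-a8, 19 and 16 in BxPC3 P1-a2, and 9 and 9 in BxPC3 P2-a8. With the pan antibody, ASPC1 held 7 and 5 with sgNC, 3 and 3 with sgP1, and 4 and 5 with sgP2. The P1 antibody gave 0 and 0 with sgNC and 1 and 1 with sgP2. All 4 BxPC3 lists held at least 9 CDH1 peaks, while the Panc10.05 lists held 6 to 11. The ASPC1 pan lists held 3 to 7 as deposited and 2 to 4 with peaks of at least 8.

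The CDH1 site with the highest percentiles in ASPC1 lay inside the gene, 55.6 kb from its lower end, at chr16:68792253-68793505. Its percentile was 98.9 and 98.1 in ASPC1 sgNC, 98.1 and 91.6 in sgP1, and 96.3 and 98.3 in sgP2, with fold enrichments from 17.4 to 42.9 (median 29.7). In BxPC3 it stood at 80.7 and 74.4 in P1-a2 and at 87.8 and 64.4 in P2-a8, and in 3 of these 4 lists another CDH1 site ranked higher. No Panc10.05 list held a peak there. The P1 antibody found it in both sgP2 lists, at percentiles 88.2 and 90.8, and in neither sgNC list. A second site inside CDH1, 15.5 kb from its lower end at chr16:68752531-68753343, was shared by 12 lists. It was present in all 4 BxPC3 lists (percentiles 36.7 to 83.6) and all 6 pan-antibody lists of ASPC1 (59.7 to 81.6). In Panc10.05 it was found in both P1-a2 lists, at 60.9 and 49.3, and in neither P2-a8 list. A site inside TANGO6, at chr16:68873410-68874454, had the widest reach of the window, with a peak in 13 of the 14 pan-antibody lists and none in sgP1 replicate 1. A site 49.6 kb into CDH1, chr16:68786695-68787149, was held by 3 BxPC3 lists only.

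CDH2, which encodes N-cadherin, had 8 sites over a span of 244252 bp on chromosome 18, 7 of them inside the gene. Peak numbers were 0 and 3 in Panc10.05 P1-a2, 2 and 2 in Panc10.05 P2-a8, 6 and 5 in BxPC3 P1-a2, and 3 and 1 in BxPC3 P2-a8. Each ASPC1 group mapped with the pan antibody held 1 peak in replicate 1 and 0 in replicate 2, and the P1 antibody found none. One site stood out in rank: chr18:28167627-28168278, 9.2 kb inside the upper end of the gene, where the minus-strand promoter window lies. It was found in all 4 BxPC3 lists, at percentiles 95.5 and 98.4 in P1-a2 and 76.6 and 98.5 in P2-a8, and in no other list. The 4 BxPC3 summits lay within 22 bp of each other. The site at chr18:28090934-28091600 was the one CDH2 site seen in all 3 lines, in 7 lists at percentiles from 13.1 to 69.7.

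SNAI1, which encodes the EMT factor Snail, is a gene of 5907 bp on chromosome 20, and 14 of its 15 sites lay outside it. RNF114, an E3 ubiquitin ligase gene on its lower side, held 5 of them. SNAI1 peak numbers were 7 and 9 in Panc10.05 P1-a2, 9 and 8 in Panc10.05 P2-a8, 11 and 10 in BxPC3 P1-a2, and 4 and 5 in BxPC3 P2-a8. ASPC1 held 5 and 3 with sgNC, 3 and 4 with sgP1 and 4 and 4 with sgP2, and the P1 antibody gave 2 and 2 with sgP2. The BxPC3 P2-a8 lists held fewer than all other induced lists. With peaks of at least 8, the ASPC1 lists held 2 or 3, below every induced list. The only site inside SNAI1 was a peak of sgNC replicate 1 alone.

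The pair of SNAI1 sites shared by all 14 pan-antibody lists lay on either side of the gene. The lower one, chr20:49968473-49970351, is 14 kb below the gene, outside any coding gene. Its percentile ranged from 36.7 to 96.0 (median 80.5) in the 8 induced lists and from 47.0 to 81.6 (median 58.9) in the 6 ASPC1 lists. The upper one, chr20:50033730-50034558, 45.3 kb beyond the upper end, ranged from 40.6 to 89.9 (median 76.1) in the induced lists and from 42.3 to 92.3 (median 85.8) in ASPC1. Both were also the SNAI1 sites found by the P1 antibody in sgP2 cells, at percentiles 16.1 and 11.2 for the lower and 77.0 and 57.9 for the upper. The 2 sites thus had a peak in 16 of 18 lists, missing only the sgNC lists of the P1 antibody.

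Other SNAI1 sites had peaks in induced lists and in no ASPC1 pan-antibody list: 4 in both induced lines, 3 in BxPC3 alone and 2 in Panc10.05 alone. Induction cannot be told apart from line in this. The 2 with the highest mean percentile are described here. The site at chr20:49957227-49958170, 25.3 kb below the gene, had percentiles 98.4 and 96.3 in Panc10.05 P1-a2 and 95.6 and 98.8 in P2-a8. In BxPC3 it had 94.9 and 91.5 in P1-a2, no peak in P2-a8 replicate 1 and 23.7 in replicate 2. Its fold enrichment reached 55.3, and it was the strongest SNAI1 site of all 4 Panc10.05 lists except P2-a8 replicate 1, where the site 14 kb below the gene was higher. The site at chr20:49945572-49946488, inside RNF114, was present in all 8 induced lists. It stood at 80.8 to 94.7 in Panc10.05, at 90.0 and 85.1 in BxPC3 P1-a2, and at 52.5 and 36.4 in BxPC3 P2-a8. Neither site had a peak in any of the 10 ASPC1 lists, whose threshold was the lower of the 2.

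SNAI2, which encodes Slug, had 7 sites on chromosome 8, 2 of them inside the gene. Peak numbers were 2 and 3 in Panc10.05 P1-a2, 4 and 3 in P2-a8, 5 and 3 in BxPC3 P1-a2, and 1 and 0 in BxPC3 P2-a8. ASPC1 held 2 and 1 with sgNC, 1 and 1 with sgP1 and 1 and 0 with sgP2. One site, 15.2 kb below the gene at chr8:48902101-48902698, was present in 12 lists, missing among pan-antibody lists only from BxPC3 P2-a8 replicate 2 and sgP2 replicate 2. Its percentile ranged from 26.4 to 83.9. A site 18.1 kb below the gene, chr8:48899100-48899705, was held by all 4 Panc10.05 lists (34.3 to 59.2) and by BxPC3 P1-a2 replicate 1 (62.3). A site held by 3 Panc10.05 lists, chr8:48921350-48922238, overlapped the upper end of the SNAI2 span, and was named after its values were seen.

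**Figure D4:**
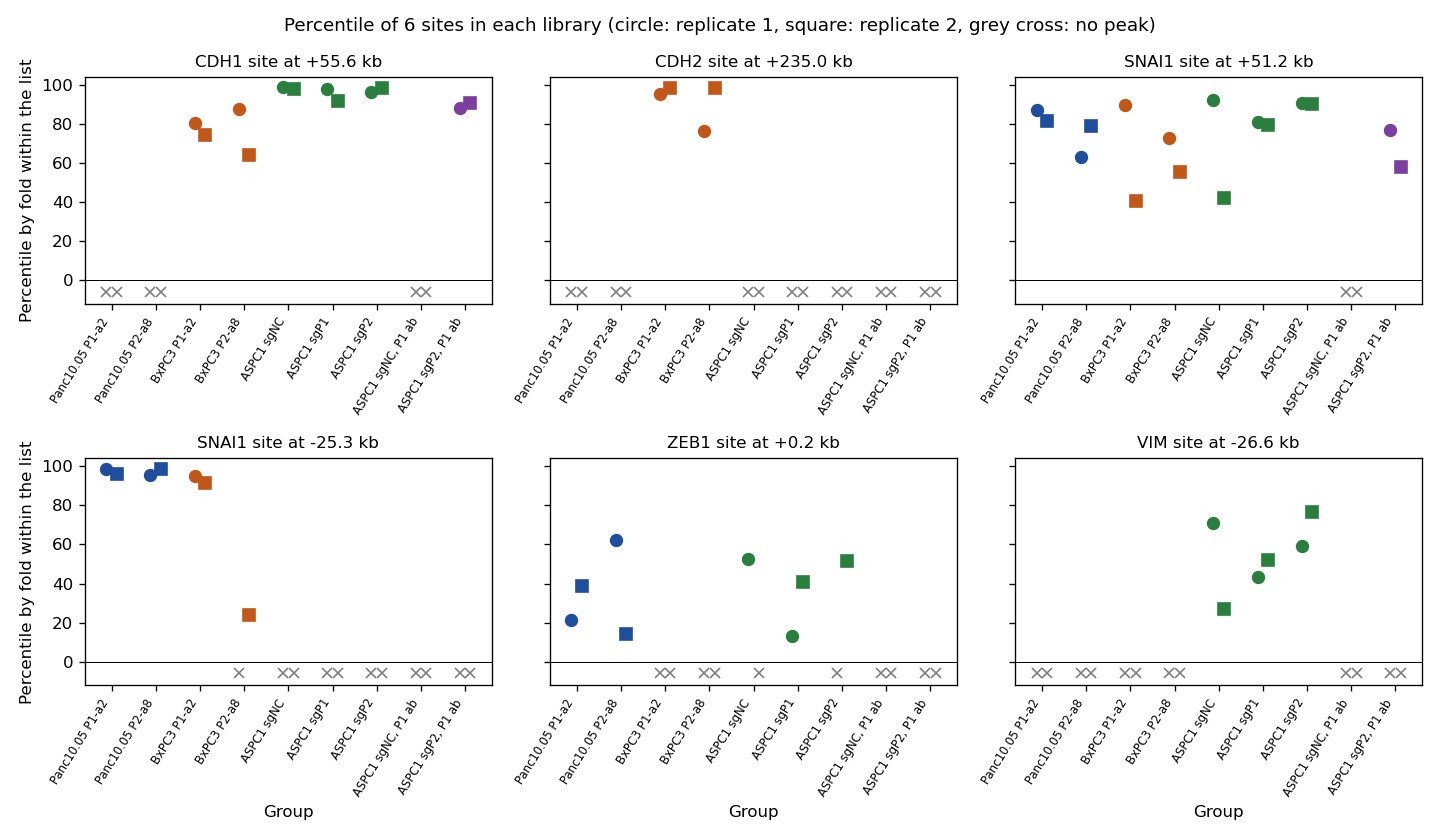
Percentile by the authors' fold enrichment (0 to 100) of 6 sites in each library of the 9 groups (circle for replicate 1, square for replicate 2, grey cross below the line for no peak), each panel titled with the distance from the lower coordinate of the gene's span. The CDH2 site at +235.0 kb has a peak in the 4 BxPC3 libraries only, the VIM site at −26.6 kb in the 6 ASPC1 pan-antibody libraries only, and the ZEB1 site at +0.2 kb in no BxPC3 library.

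ZEB1, which encodes a zinc-finger homeodomain repressor, had a site at its own promoter in 8 lists as deposited, while other sites reached 7. With peaks of at least 8, sgP1 replicate 1 held 0 ZEB1 peaks, so this lead depends on the threshold. ZEB1 had 5 sites on chromosome 10, and peak numbers were 3 and 3 in Panc10.05 P1-a2, 4 and 3 in P2-a8, 3 and 3 in BxPC3 P1-a2 and 0 and 1 in BxPC3 P2-a8. The ASPC1 pan lists held 2 and 0 with sgNC, 1 and 1 with sgP1 and 0 and 1 with sgP2. The promoter site, chr10:31318110-31319038, covers the sequences of both ZEB1 windows shown above and also lies in ZEB1-AS1, which these lists cannot tell from ZEB1. Its percentile was 21.6 and 38.5 in Panc10.05 P1-a2 and 62.1 and 14 in P2-a8. In ASPC1 it had peaks in sgNC replicate 1 (52.4), both sgP1 lists (13.2 and 40.8) and sgP2 replicate 2 (51.6). No BxPC3 list held it, so the ranks were moderate and the site was split by line.

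The other ZEB1 sites lay far from the start. An intragenic site at chr10:31359906-31360393, 41.7 kb into the gene, was present in all 4 Panc10.05 lists (47.1 to 82.2) and in 3 BxPC3 lists (92.9, 81.4 and 63.7), and in no ASPC1 list. A site 15.9 kb beyond the upper end, chr10:31545358-31546071, was found in all 4 Panc10.05 lists (59.2 to 90.3), in both BxPC3 P1-a2 lists (74.5 and 80.8) and in sgNC replicate 1 (18.2). Both sites were thus mainly those of the induced lines. A weaker site at chr10:31500311-31500813 was held by the BxPC3 P1-a2 lists alone.

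ZEB2 had 9 sites on chromosome 2, 3 inside the gene, and no peak at its promoter window. Peak numbers were 1 and 2 in Panc10.05 P1-a2, 3 and 2 in P2-a8, 5 and 5 in BxPC3 P1-a2, 0 and 1 in BxPC3 P2-a8, and 1 or 2 in each pan-antibody list of ASPC1. The site at chr2:144370786-144371786, 12.7 kb below the span, was shared by 12 lists. It had percentiles of 35.9 to 94.1 in the 4 Panc10.05 lists, 63.7 and 89.9 in BxPC3 P1-a2, and 59.4 to 84.5 (median 71.3) in the 6 ASPC1 lists, but no peak in BxPC3 P2-a8. A pair of intragenic sites, chr2:144412724-144413289 and chr2:144414474-144414924, had percentiles of 90.0 and 88.4, and 61.1 and 81.8, in BxPC3 P1-a2. The second was found nowhere else, and the first also in Panc10.05 P2-a8 replicate 1 (18.5). A Panc10.05 site at chr2:144369398-144369874 was missing from P1-a2 replicate 1 and present in the other 3 lists of the line, at 35.3 to 76.7.

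TWIST1 had the fewest sites of the members, 2 on chromosome 7, and none inside the gene. Windows differ in length, and that of TWIST1 was 105 kb, beside 311 kb for ZEB1 with 5 sites. The site 12.3 kb below TWIST1, chr7:19100575-19101353, was present in all 4 Panc10.05 lists, at percentiles 11.1 and 35.7 in P1-a2 and 74.0 and 32.2 in P2-a8. It was also in both BxPC3 P1-a2 lists, at 60.7 and 57.5. No BxPC3 P2-a8 list and no ASPC1 list held it, and the one other peak of the window was that of sgP2 replicate 2.

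VIM had 8 sites, and 4 of them were seen in ASPC1 alone, 1 of these in a single list. With peaks of at least 8 in every list, VIM had 6 sites, of which 2 were in ASPC1 alone. At that threshold the ASPC1 lists held 1 to 3 VIM peaks (median 1.5), beside 2 to 4 in Panc10.05 and 1 or 2 in BxPC3. VIM peak numbers were 2 and 4 in Panc10.05 P1-a2, 4 and 4 in P2-a8, 2 and 2 in BxPC3 P1-a2, and 1 and 1 in BxPC3 P2-a8. The pan-antibody lists of ASPC1 held 3 and 4 with sgNC, 4 and 2 with sgP1 and 4 and 3 with sgP2, and the P1 antibody found none. The site at chr10:17201179-17201813 was present in all 6 of these lists, at percentiles of 27.0 to 76.4 (median 55.5), and in none of the 8 induced lists. It overlaps the promoter window of TRDMT1, an RNA methyltransferase gene, 26.6 kb below VIM, whose sequence is shown above. A site at the start of VIM itself, chr10:17227593-17229359, was found in all 6 pan-antibody lists of ASPC1 (5.97 to 67.2), in 3 Panc10.05 lists (5.53, 42.2 and 31.1) and in no BxPC3 list. It is broad, with summits spread over 891 bp, and was named after its values were seen. Only 4 ASPC1 lists, and no Panc10.05 list, had a peak overlapping the VIM promoter window, and no summit lay in it. The lists of this merged site therefore need not share a position.

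Sites of the induced lines at VIM lay elsewhere. The site at chr10:17213438-17214029, 14.5 kb below the gene, was found in 3 Panc10.05 lists and all 4 BxPC3 lists, at 32.2 to 77.7. The site at chr10:17278507-17279042, 41.2 kb beyond the upper end, was found in all 4 Panc10.05 lists (55.9 to 77.4), both BxPC3 P1-a2 lists (60.0 and 33.4) and sgNC replicate 2 (18.2). A weak site at chr10:17273080-17273672 was held by all 4 Panc10.05 lists (3.48 to 46.9) and no other.

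The isoform comparison asks whether P1-a2 and P2-a8 occupy different sites in the same line. In Panc10.05 they did so at few sites of these genes. Of 44 sites in the line's 4 lists, 18 were in every list, and 2 were in both P1-a2 lists and neither P2-a8 list: the CDH1 site 15.5 kb from its lower end, and one inside RNF114 near SNAI1, chr20:49948766-49949243. One site was in both P2-a8 lists only, at chr16:68726210-68726790 inside CDH3. Over all regions of these lists, 38.0% were in every list, 3.64% were P1-a2 only and 10.9% were P2-a8 only. P1-a2 lists held 22 and 36 peaks at the 8 loci (29 ± 9.90, SD, n = 2) and P2-a8 lists 34 and 29 (31.5 ± 3.54, SD, n = 2), which overlapped. The difference of −2.5 became 4.5 without P1-a2 replicate 1, and 4 with lists limited to the same length.

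In BxPC3 the P1-a2 lists held more peaks at every member than the P2-a8 lists. There were 52 and 45 peaks at the 8 loci with P1-a2 (48.5 ± 4.95, SD, n = 2) and 18 and 18 with P2-a8 (18 ± 0, SD, n = 2). Of 54 sites, 19 were P1-a2 only, beside 28.2% of all regions of these lists, and 0 were P2-a8 only, beside 0.129%. All 4 lists held 11 of the sites, beside 18.3%. The 19 sites were spread over all members: 5 at SNAI1, 4 at CDH1, 3 at ZEB2, 2 each at SNAI2 and ZEB1, and 1 each at CDH2, TWIST1 and VIM. They included the TWIST1 site 12.3 kb below the gene and the ZEB2 site shared by 12 lists. The sites kept by P2-a8 were those of CDH1 (6), SNAI1 (3), CDH2 (1) and VIM (1), and the strong CDH2 site was among them.

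The BxPC3 difference followed the length of the lists. P1-a2 lists held 41808 and 33737 peaks in all and P2-a8 lists 12681 and 14666. The 8 loci took 1.24 and 1.33 of every 1000 peaks with P1-a2 and 1.42 and 1.23 with P2-a8. With each list limited to its 12681 strongest peaks, 2 sites were P1-a2 only and 2 were P2-a8 only, beside 6.83% and 5.31% of regions, and the mean number at the 8 loci was 14 with P1-a2 and 17 with P2-a8. Depth and the efficiency of the precipitation are unknown for these lists, and their part in the difference was not tested.

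Per gene, a two-sided exact permutation test of isoform within line, with Benjamini-Hochberg adjustment over 18565 coding genes, cannot give a p below 0.0556. It called 0.0% of genes in either direction, adjusted or not. CDH1 had 13 ± 5.72 peaks with P1-a2 and 7.75 ± 1.5 with P2-a8 (SD, n = 4 each), an adjusted p of 0.987. SNAI1 had 9.25 ± 1.71 and 6.5 ± 2.38 (adjusted p = 0.987, exact permutation). VIM had the same mean in both, 2.5. Since no gene could pass, the test says nothing about isoform differences at single genes.

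Few sites of the 8 loci were in every list of 1 induced line and in no list of the other. Of 64 sites in their 8 lists, 3 were in all 4 BxPC3 lists and no Panc10.05 list: the CDH1 site at +55.6 kb, the CDH2 site inside its upper end, and chr16:68724894-68725377 inside CDH3. In all 4 Panc10.05 lists and no BxPC3 list were 2 sites, the ZEB1 promoter site and the VIM site at chr10:17273080-17273672. The background was 2.09% of regions for BxPC3 only and 5.55% for Panc10.05 only. Sites in all 8 lists numbered 4, beside 8.2%, of which 3 were near SNAI1 and 1 in the CDH1 window.

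By gene, 0.0% of 18565 genes passed the adjusted exact permutation test between the lines in either direction. The smallest p this test can give, over 70 assignments, is 0.0286. After adjustment that passes 0.05 only if most genes reach it, so the 0.0% does not show that the lines are alike. At an unadjusted p of at most 0.05, 13.9% had more peaks in Panc10.05 and 1.51% more in BxPC3, and no member was among them. Per 10000 peaks of the list, 20.2% and 7.55% were, among them VIM (0.412 higher in Panc10.05) and CDH1 (a difference of −3.33), each at an unadjusted exact permutation p of 0.0286 and an adjusted p of 0.103. CDH1 had 7.5 ± 2.38 peaks in Panc10.05 and 13.2 ± 5.06 in BxPC3 (SD, n = 4 each, two-sided exact permutation p = 0.114, adjusted 0.378). CDH2 had 1.75 ± 1.26 and 3.75 ± 2.22 (exact permutation, adjusted p = 0.535), and VIM 3.5 ± 1 and 1.5 ± 0.577 (adjusted p = 0.318). The 8 loci pooled took 0.862 to 1.05 of every 1000 peaks in each Panc10.05 list and 1.23 to 1.42 in each BxPC3 list, which did not overlap. The means were 0.918 and 1.31, and the CDH1 window, which also covers CDH3, held most of this gap. VIM went the other way, so the pooled value does not describe each member.

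ASPC1 cells, whose labels give no dox treatment, had fewer peaks than the induced lines at CDH1 and SNAI1 when only peaks with a −log10 q of at least 8 were counted. Cell line, dox and the number prefix all differ between these sets, so none of them was tested alone. Libraries were permuted as if independent, although they come as 2 per group and groups share a line. The p-values below therefore do not extend to other lines. The ASPC1 set also pools sgNC with sgP1 and sgP2, the guides to the P1 and P2 classes by their labels. CDH1 had 3 ± 0.632 peaks in the 6 pan-antibody lists of ASPC1 and 10.4 ± 4.78 in the 8 induced lists (SD, two-sided exact permutation over all assignments of the 14 libraries, adjusted p = 0.0142 over 18670 genes). SNAI1 had 2.5 ± 0.548 and 7.88 ± 2.42 (exact permutation, adjusted p = 0.0142). TWIST1 had 0 ± 0 and 0.75 ± 0.463 (exact permutation, adjusted p = 0.0395). These 3 members were among the 26.5% of genes with fewer peaks in ASPC1, while 1.14% had more and no member did. The other members did not pass, with adjusted p-values of 0.0508 for ZEB1, 0.0516 for CDH2, 0.0582 for SNAI2, 0.283 for ZEB2 and 0.353 for VIM. By the same exact permutation test on peaks per 10000 of the list, CDH1 (adjusted p = 0.325) and SNAI1 (0.374) no longer passed and VIM was higher in ASPC1 by 0.652 (adjusted p = 0.0181). On that scale 23.9% of genes were higher in ASPC1 and 21.2% lower. The TWIST1 call was lost when any 1 of 12 of the 14 libraries was left out, with adjusted p-values from 0.0584 to 0.0766, and held without either BxPC3 P2-a8 library.

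By site at the same threshold, 1 of 67 sites was in all 6 ASPC1 lists and no induced list, the VIM site at the TRDMT1 promoter, beside 0.826% of regions. One site was in all 8 induced lists and no ASPC1 list, the SNAI1 site inside RNF114, beside 3.03%. The pair of SNAI1 sites on either side of the gene were the 2 sites in all 14 lists, beside 2.81%. These site counts were added after the lists were seen.

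The guides sgP1 and sgP2 target the P1 and P2 classes by their labels, and both are compared with the same sgNC libraries. The CDH1 site at +55.6 kb and the pair of SNAI1 sites had a peak in every library of both guides. At the 8 loci sgNC held 22 and 14 peaks (18 ± 5.66, SD, n = 2), sgP1 15 and 12 (13.5 ± 2.12) and sgP2 15 and 16 (15.5 ± 0.707), so each pair of groups overlapped or met. Of 26 sites of sgP1 and sgNC, 9 were in all 4 lists (32.0% of regions), 2 were in sgNC only (8.97%) and 0 in sgP1 only (0.409%). The 2 were chr16:68742635-68743173 inside CDH1 and chr10:17216187-17216595 below VIM. Of 27 sites of sgP2 and sgNC, 10 were in all 4 lists (34.0%), 0 in sgNC only (7.2%) and 1 in sgP2 only (0.407%). That one was chr10:17266556-17266990, 29.2 kb beyond VIM, with percentiles of 0.932 and 21.8, and it had no peak in any other list.

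Directly compared, 8 of the 22 sites of sgP1 and sgP2 were in all 4 lists (38.0% of regions). Sites in both sgP2 lists and neither sgP1 list numbered 3 (4.32%), at CDH1, SNAI1 and VIM, and 0 were sgP1 only (2.75%). The 3 were weak in sgP2: the SNAI1 site at chr20:49976323-49977170 stood at 0.664 and 8.30, and the CDH1 site at chr16:68742635-68743173 at 19.5 and 10.4. At the threshold of 8, none of the 3 was called and 1 site was sgP1 only. With 2 libraries against 2 no permutation test can pass the threshold, and none is given.

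The P1 antibody asks where P1 isoforms are bound, and at these loci it found peaks only in sgP2 cells. sgP2 lists held 4 and 3 peaks at the 8 loci and sgNC lists 0 and 0. Of 4 sites, 3 were in both sgP2 lists and neither sgNC list: the CDH1 site at +55.6 kb and the pair of SNAI1 sites at −14 and +51.2 kb. The fourth, at ZEB2, was in sgP2 replicate 1 only. Over all regions of these lists 36% were sgP2 only, 0.0638% sgNC only and 3.04% in all 4 lists, which held no site of these genes. The sgNC lists held 697 and 260 peaks in all and the sgP2 lists 5200 and 3916, and limited to 260 peaks each no list held any site of these genes.

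In sgP2 cells, the 3 sites in both P1-antibody lists were also pan-antibody sites, while the ZEB2 site of 1 P1-antibody list was in no pan-antibody list. Of 20 sites of the 2 antibodies, 3 were in all 4 lists (16% of regions), 9 in both pan lists only (29.2%) and 0 in both P1-antibody lists only (0.0562%). The 9 were 3 of the CDH1 window, 3 of the VIM window, 2 of the SNAI1 window and 1 of ZEB2, including the CDH1 site at +15.5 kb and the VIM sites at the TRDMT1 promoter and at the VIM start. The CDH1 site at +55.6 kb was the strongest of the 3 shared sites with either antibody.

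Like the members, 3 wider gene lists were chosen by name with earlier results of these data known, so shares over them are descriptions. Among these lists, the share of genes with a peak within 50 kb was highest for epithelial genes in each of the 7 pan-antibody groups. Of 22 epithelial genes (junction, keratin and splicing genes such as EPCAM, CLDN4, KRT8 and ESRP1), a peak in both libraries was found near 22 in Panc10.05 P1-a2, 22 in P2-a8, 21 in BxPC3 P1-a2 and 14 in BxPC3 P2-a8. ASPC1 held 21 with sgNC, 19 with sgP1 and 21 with sgP2. Of 26 mesenchymal genes the same groups held 23, 22, 19, 10, 17, 14 and 13. Of 10 genes of TGF-beta signalling, which induces EMT, they held 7, 9, 8, 3, 4, 3 and 4. The epithelial share was above that of all coding genes in each of the 7 pan-antibody groups. The mesenchymal share was below it in both BxPC3 groups and sgP2 and above it in the others. The TGF-beta share was above it in Panc10.05 P2-a8 and BxPC3 P1-a2 and below it in the others. The median epithelial gene had 4 peaks in Panc10.05 P1-a2 and 5.75 in ASPC1 sgNC, the median mesenchymal gene 2.5 and 2, the median TGF-beta gene 2.25 and 0.25, and the median coding gene 2 and 1.5. CDH3 shares the CDH1 window, and KRT8 and KRT18 are neighbours, so the genes are not independent.

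Genes of these lists were also compared by a peak in every library of one group and none of the other. In BxPC3, a peak in both P1-a2 lists and neither P2-a8 list was found at CRB3, a polarity gene, at ACTA2, FN1 and TWIST2, and at SMAD2, TGFB1 and TGFB2. That is 1 of 22, 3 of 26 and 3 of 10, beside 16.5% of coding genes, and of the members TWIST1 alone. In ASPC1, CDH11 had 1 peak in each sgNC list and 0 in the sgP1 and sgP2 lists, and MMP9 had 3 and 1 with sgNC and 0 and 0 with sgP1. These are 2 of 26 for sgP1 and 1 of 26 for sgP2, beside 3.59% and 2.81%. Between the lines, TNC and SMAD4 had a peak in all Panc10.05 lists and no BxPC3 list. That is 0 of 22 epithelial, 1 of 26 mesenchymal and 1 of 10 TGF-beta genes, beside 2.48% of coding genes. A gene lost from a line's genome could give no peak there, and copy number was not examined. With the P1 antibody, 9 of 22 epithelial genes were in both sgP2 lists and neither sgNC list, the first 5 by name being CLDN4, CTNND1, EPCAM, GRHL2 and JUP. The share of all coding genes was 17.1%. The mesenchymal genes AXL, THY1 and TWIST2 and the TGF-beta receptor gene TGFBR2 were among the other genes of this kind. In sgP2 cells, 9 of 22 epithelial genes were in both pan-antibody lists and neither P1-antibody list, as were 6 of 26 mesenchymal genes, SMAD7 of the TGF-beta genes and VIM of the members, beside 17.6% of coding genes.

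The genes whose strongest peak within 50 kb varied in percentile (0 for no peak) most like that of each member were found by Pearson correlation over the 18 lists, which share line, list length and antibody, among genes more than 1 Mb away. For CDH1 they were NOX4 (0.968), ABAT (0.965) and METTL22 (0.962). For CDH2 they were HORMAD1 (0.931), C21orf91 (0.929) and AREG (0.909). SNAI1 was most like ANO1 (0.987), CPLX2 (0.984) and AQP7B (0.978). SNAI2 was most like RBL1 (0.944), ZEB1 like NUDT13 (0.969), ZEB2 like RARRES1 (0.979), TWIST1 like KREMEN1 (0.986) and VIM like ABL1 (0.920). For CDH1 and SNAI1, 2481 other coding genes had a peak in exactly the same 16 lists, while no other gene had the 10 lists of CDH2.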

How the data were processed

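HNF4α ChIP-seq peak lists of 18 libraries were analysed, 1 list per library, so peaks were called per sample. Per the submitters' processing notes, Bowtie2 2.2.9, MACS2 2.2.7 and the builds hg38 and mm10 were used. The control and filters are not given in the sources used here. In the deposited lists, fold enrichment is a linear ratio, p and q are −log10 values, an integer score is given per peak, and the summit is an offset from the peak start, all the authors' own. Groups follow the labelled line, genotype and antibody. For the BxPC3 P2-a8 libraries the titles pair a8 with P1, and the genotype label was used. Coordinates are 1-based. Gene spans came from RefSeq (GRCh38.p14), and 5.56% to 18.9% of summits lay within 1 kb of a gene start against 0.769% to 3.83% after a shift of 100 kb. Peaks were merged into sites at an overlap of 1 bp. A site was called for a group when it was in every library of it and in none of the other. Peak numbers per gene were tested by two-sided exact permutation with Benjamini-Hochberg adjustment over all coding genes with a peak (Python 3.11.15, numpy 2.4.6, pandas 2.3.3). The scripts were tested on simulated data. A result on 1 gene of the lists is not reported here. Numbers of sites by line and of peaks per member with a −log10 q of at least 8 in every list were added after the data were seen. Named sites were those in both libraries of a group (per gene the 4 with the highest mean percentile), and, chosen after their values were seen, sites that a comparison called or that overlapped a promoter. Other sites named for their values are in the same class. Members and gene lists were chosen with earlier results of these data known. Alternatives were windows of 10 and 100 kb, a −log10 q of at least 8 or 20, equal list lengths, peaks per 10000, summits within 100 bp, and leaving out each library.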

Additional observations from a re-analysis of the deposited data

How the results depend on the processing

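Numbers of peaks at the 8 loci depended on list length. Limited to the same length by fold, the difference turned for Panc10.05 P1-a2 against P2-a8 (−2.5 to 4), BxPC3 P1-a2 against P2-a8 (30.5 to −3) and sgP2 against sgNC (−2.5 to 2), and was 0 for sgP1 against sgNC (−4.5), sgP1 against sgP2 (−2), the P1 antibody in sgP2 against sgNC (3.5) and the P1 against the pan antibody (−12). Within 10 kb, the differences were 15 (BxPC3 isoforms), 1 (P1 antibody) and −5.5 (antibodies). Within 100 kb they were 42, −9 (sgP1 against sgNC), −7.5 (sgP2 against sgNC), 4 (P1 antibody) and −14 (antibodies). With a −log10 q of at least 8 they were 2.5 (P1 antibody) and −7 (antibodies). Leaving out 1 library gave −9.5 to 4.5 (Panc10.05 isoforms; 4.5 without P1-a2 replicate 1), 27 to 34 (BxPC3 isoforms), −8.5 to −0.5 (sgP1 against sgNC), −6.5 to 1.5 (sgP2 against sgNC; 1.5 without sgNC replicate 1), −3.5 to −0.5 (sgP1 against sgP2), 3 to 4 (P1 antibody), −12.5 to −11.5 (antibodies) and −8.08 to 3.25 (Panc10.05 against BxPC3, −3 with all libraries; 3.25 and 0.917 without BxPC3 P1-a2 replicates 1 and 2).

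Sites called for a group were few, and their numbers moved. Within 10 kb they were 1 and 0 for Panc10.05 P1-a2 and P2-a8, 7 for BxPC3 P1-a2, 1 for sgNC against sgP1, 0 for sgP2 against sgNC, 1 for the P1 antibody in sgP2, 4 for the pan antibody and 1 for Panc10.05. Within 100 kb they were 2 for Panc10.05 P2-a8 and 4 and 3 for sgNC against sgP1 and sgP2. With a −log10 q of at least 8 they were 0 for sgNC against sgP1, 0 for sgP2 and 1 for sgNC, 1 for sgP1 and 0 for sgP2 between the guides, and 4 for the pan antibody. At equal list length they were 2 and 2 for BxPC3 P1-a2 and P2-a8, 1 for sgNC against sgP1, 0 for sgP2 against sgP1, 0 for the P1 antibody in sgP2, 0 for the pan antibody and 0 for Panc10.05. With summits within 100 bp they were 2 for Panc10.05 P2-a8, 1 for sgP1 against sgNC, 1 and 1 for sgP1 and sgP2, and 1 for Panc10.05. Leaving out 1 library gave 2 to 7 and 1 to 8 for Panc10.05 P1-a2 and P2-a8, 21 to 27 for BxPC3 P1-a2, 0 to 1 and 2 to 8 for sgP1 and sgNC, 1 to 3 and 0 to 6 for sgP2 and sgNC, 1 to 2 and 3 to 5 for sgP1 and sgP2, 3 to 4 for the P1 antibody in sgP2, 0 to 1 and 9 to 13 for the P1 and pan antibodies, and 2 to 6 and 3 to 6 for Panc10.05 and BxPC3. Fewer libraries make the call easier by its construction.

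Of genes that differed between ASPC1 and the induced lines, 5161 became 2438 within 10 kb, 8421 per 10000 peaks, 3140 with lists as deposited, and 2913 to 8459 without 1 library. It was 8459 and 8185 without BxPC3 P2-a8 replicates 1 and 2, 3220 without sgNC replicate 2, 2913 and 2915 without sgP1 replicates 1 and 2, and 2928 and 3229 without sgP2 replicates 1 and 2. TWIST1 also missed the threshold with lists as deposited (adjusted p = 0.222, exact permutation) and at a −log10 q of 20 or more (0.0664), where ZEB1 (0.0199), SNAI2 (0.0395) and CDH2 (0.0484) passed, beside 37% of genes with fewer peaks in ASPC1. Counted per 10000 peaks, ZEB2 (0.350) and VIM (0.652) turned in ASPC1, SNAI1 turned between the lines (−0.506), and CDH1 (−0.470), CDH2 (−0.0894) and SNAI1 (−0.0480) turned between isoforms. VIM was 0.833 with lists as deposited, and SNAI1 between the lines was −0.417 and −0.0833 without BxPC3 P2-a8 replicates 1 and 2 (−0.417 to 1.92 without any 1 library). The cause was not tested.

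Libraries with the same replicate number did not deviate together (correlations of −0.0674 to 0.0680), so the numbers do not pair them. With a replicate block the differences of peak numbers were the same (−2.5 and 30.5 for the isoforms in Panc10.05 and BxPC3), and the per-gene tests, whose smallest p is then 0.125, could call no gene.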
